A study of Mus musculus with 17 samples.

Results

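Genes that decide whether a T cell survives, dies or kills were followed in CD8+ T cells, the T lymphocytes that kill infected or altered cells, in libraries of mouse brain and mouse blood. The 9 genes were taken by name from a table of raw RNA sequencing counts that lists 48709 genes: the survival genes Bcl2, Mcl1, Bcl2a1b and Bcl2a1d, the caspases Casp1 and Casp8, and the death ligands Tnfsf10 and Fasl with the death receptor Fas. The 17 libraries fell into 4 groups: 4 of APP-PS1 brain, 5 of WT brain, 3 of APP-PS1 blood and 5 of WT blood. APP-PS1 mice carry 2 transgenes, one for a mutant amyloid precursor protein that joins mouse and human sequence (APP Swedish) and one for mutant human presenilin 1 (PS1 dE9), and are an animal model of Alzheimer's disease. Both transgenes are driven by the prion protein promoter towards neurons of the central nervous system. WT mice carry neither transgene. The series is described as a study of aged animals, with 7 APP-PS1 and 10 WT mice, and no age in months is used here. APP-PS1 brain had 3 male libraries and 1 female, APP-PS1 blood had 2 male and 1 female, and all WT libraries were from females, so sex and strain largely coincide. Both hemispheres of a brain were dissociated and put on a density gradient, whereas red cells were lysed in blood, so tissue and processing cannot be told apart.

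T cells die by 2 linked routes. In the intrinsic route, BH3-only proteins and the pore formers BAX and BAK open the outer mitochondrial membrane, and BCL2, MCL1 and A1 (the product of the Bcl2a1 genes) hold them back. In the extrinsic route, FAS ligand or TRAIL binds a death receptor, which activates caspase-8; CD8+ T cells also use these ligands to kill other cells. Caspase-1 belongs to a separate branch, in which inflammasomes activate it to process interleukin-1 family cytokines and to cleave gasdermin D.

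The libraries were shallow, with 27646 to 127707 counts in APP-PS1 brain, 51161 to 169903 in WT brain, 39055 to 46336 in APP-PS1 blood and 62604 to 214670 in WT blood. Levels are given as CPM, counts scaled to the library total, so 1 count was worth between 4.66 and 36.2 CPM. The 9 CD8 T cell markers (the Cd3 chains, Cd247, Cd8a, Cd8b1 and the T cell receptor constant genes) were all detected in every group, and Cd4 had no count in any library. Their sum was 8664 to 10364 CPM in APP-PS1 brain and 7920 to 8578 in APP-PS1 blood, so every brain library of that strain was higher, and 9839 to 11591 in WT brain and 8067 to 11137 in WT blood, where the groups overlapped; its part in the tissue differences was not tested. As a check of the sex labels, Xist was counted 2 times in 5 male libraries and 419 times in 12 female ones, of which WT blood replicate 4 held 1. No label ties a library to an animal or a brain library to a blood library, so p-values measure only the spread between these libraries, which may be technical. In bulk samples, fewer cells of a type and less RNA per cell cannot be told apart.

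Across tissues, 3 of the 7 genes that could be tested were called higher in brain CD8+ T cells: Tnfsf10, Casp1 and Bcl2a1b. These calls came from the brain over blood changes averaged over both strains, where 1.27% of all 2366 genes were called higher. That comparison and the 9 genes were chosen with earlier results of these data known, so the calls are not those of a planned test. Within either strain alone none of the genes was called, and another method, limma voom with quality weights per library, called none in the average. The Bcl2a1b call held in 6 of 17 fits that each left out 1 library. Tnfsf10 encodes TRAIL, Casp1 the inflammasome protease and Bcl2a1b the survival protein A1. The averaged log2 fold change was 2.02 (SE 0.51) for Tnfsf10, 1.35 (SE 0.34) for Casp1 and 1.12 (SE 0.32) for Bcl2a1b. Tnfsf10 entered the test only through its brain libraries. No blood library reached the 117 CPM that the expression filter asks of 3 libraries. The survival genes Bcl2, Mcl1 and Bcl2a1d and the ligand gene Fasl did not pass the test, and Casp8 and Fas were too low to enter it. Between the strains, in either tissue, none of the 9 genes passed.

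**Figure D1:**
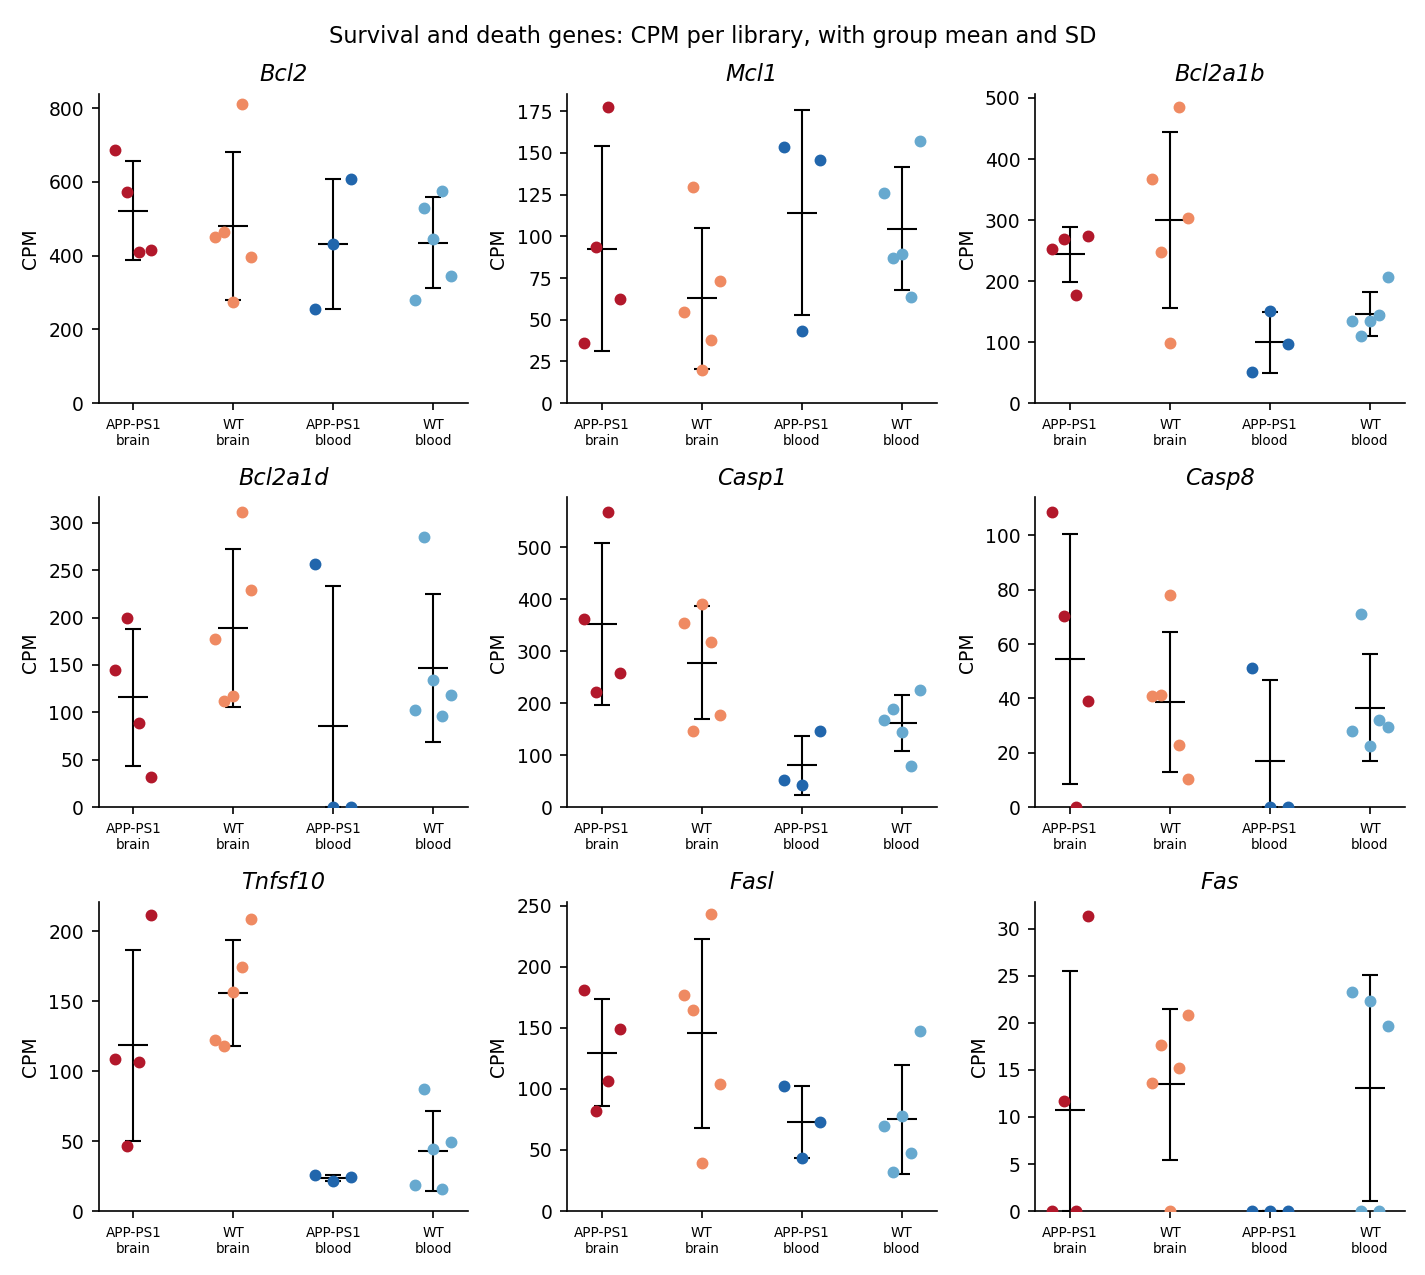
CPM of each of the 9 genes (y axis, own scale per panel) in the 4 groups (x axis); a point is 1 library, the horizontal bar is the group mean and the error bar is the SD, drawn from 0 upward only. Tnfsf10 shows brain libraries above blood libraries in each strain, Bcl2 shows overlapping groups, and Fas shows 0 in all 3 APP-PS1 blood libraries.

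The sequences that bear on these results come first, because 2 of the survival genes are near-identical copies. Bcl2a1b (chromosome 9, 89199209 to 89207827, plus strand) and Bcl2a1d (chromosome 9, 88723285 to 88731914, minus strand) encode A1, a short-lived relative of BCL2. Another copy, Bcl2a1a, lies on the plus strand at 88956900 to 88962419 of the same chromosome; positions are on build GRCm38 in the GENCODE M21 annotation, which lists all 9 genes as protein coding. The first 100 coding bases of the copies are shown to let their likeness be seen, with capitals at positions where the 3 differ:
Bcl2a1b: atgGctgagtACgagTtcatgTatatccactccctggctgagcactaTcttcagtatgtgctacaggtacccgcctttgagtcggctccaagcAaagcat
Bcl2a1d: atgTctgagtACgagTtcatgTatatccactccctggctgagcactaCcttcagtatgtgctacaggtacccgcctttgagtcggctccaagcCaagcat
Bcl2a1a: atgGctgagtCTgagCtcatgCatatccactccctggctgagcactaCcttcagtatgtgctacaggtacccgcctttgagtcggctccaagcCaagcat
Over all 519 coding bases, Bcl2a1b and Bcl2a1d differ at 6 positions, which is 98.8% identity. Counted from the A of the start codon, with the base of Bcl2a1b first, these are G4T, T48C, A94C, G312A, C381G and T490A. Of all 50-base windows of the transcripts, 57.6% in Bcl2a1b and 79.5% in Bcl2a1d occur unchanged in another copy, and of all 100-base windows 31.1% in Bcl2a1b and 54.7% in Bcl2a1d do. The sources used here do not say how reads that fit several copies were counted, so the split between the copies is uncertain, and their sum is given below beside the single values.

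The 3 genes called in the averaged comparison are shown with the sequence upstream of their RefSeq start on GRCm38.p6, plus strand. Capitals mark every match to 5 short motifs searched on both strands in the 250 bases before the start of each gene: the interferon response element (GAAA, any 2 bases and GAAA again), its core AANNGAAA, the STAT site TTCNNNGAA, the kappa B site (GGG, any 2 bases and TTTCC) and the AP-1 site TGANTCA. The first motif contains the second. Where the GENCODE gene start lies inside the window, printing stops before it, except in Tnfsf10, whose printed stretch runs on to the end of a match: its GENCODE start is at 27317028, so the match at offset -30 lies inside the GENCODE transcript and that at -53 spans its start.
Casp1, chr9:5298267-5298516: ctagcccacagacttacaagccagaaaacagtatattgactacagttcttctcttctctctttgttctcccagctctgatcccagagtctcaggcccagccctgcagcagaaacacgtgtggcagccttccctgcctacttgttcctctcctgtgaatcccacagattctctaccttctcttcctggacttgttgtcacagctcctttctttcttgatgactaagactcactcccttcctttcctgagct
Tnfsf10, chr3:27316827-27317054: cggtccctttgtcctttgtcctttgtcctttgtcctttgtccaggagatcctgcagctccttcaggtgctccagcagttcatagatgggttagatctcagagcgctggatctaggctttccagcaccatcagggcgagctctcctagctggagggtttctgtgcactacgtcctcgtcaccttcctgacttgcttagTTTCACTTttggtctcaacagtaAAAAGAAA
Bcl2a1b, chr9:89199023-89199208: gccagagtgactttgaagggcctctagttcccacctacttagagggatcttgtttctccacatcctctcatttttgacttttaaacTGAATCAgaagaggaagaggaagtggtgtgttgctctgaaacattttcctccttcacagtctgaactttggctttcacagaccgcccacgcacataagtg
The Tnfsf10 window holds the core AANNGAAA at offsets -53 and -30 from the start, as TTTCACTT and AAAAGAAA. The Bcl2a1b window holds TGANTCA at offset -164, and the Casp1 window holds none of the 5. Among the 9 genes, AANNGAAA was found in 3 (Casp8, Tnfsf10 and Fas) and in 21.3% of 32851 promoters of the same length. TGANTCA was found in 3 of the 9 (Bcl2a1b, Bcl2a1d and Fas) and in 6.75% of promoters. The match reads TGAATCA in both Bcl2a1 genes, which are near-identical copies, so these 2 are not independent. TTCNNNGAA was found in Fas and in 7.02% of promoters, the kappa B site in Mcl1 and in 1.41%, and the full interferon response element in 0 of the 9 and in 2.98%. A match describes letters only and does not show that a factor binds there.

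Bcl2 (chromosome 1, 106538178 to 106714274, minus strand) encodes the founding anti-apoptotic protein of the family, which keeps resting and memory T cells alive. Its level was 687, 574, 409 and 415 CPM in the 4 APP-PS1 brain libraries and 449, 465, 274, 812 and 396 CPM in the 5 WT brain libraries. In blood it was 256, 432 and 608 CPM in APP-PS1 libraries and 279, 529.8, 446, 575 and 344 CPM in WT libraries. The 4 groups overlapped throughout, and the highest library of all was a WT brain one. The means were 521 ± 134 CPM in APP-PS1 brain (SD, n = 4), 479 ± 201 in WT brain (n = 5), 432 ± 176 in APP-PS1 blood (n = 3) and 435 ± 124 in WT blood (n = 5). Ranked by mean, APP-PS1 brain led WT brain, WT blood and APP-PS1 blood, and no neighbours in that order differed beyond their spread. The averaged brain over blood log2 fold change was 0.15 (SE 0.24, edgeR adjusted p = 0.870), and it was 0.20 (SE 0.38) in APP-PS1 and 0.11 (SE 0.28) in WT.

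Mcl1 (chromosome 3, 95658788 to 95663176, plus strand) encodes a short-lived anti-apoptotic protein that T cells need at all stages. Its level was 36.2, 93.7, 178 and 62.6 CPM in APP-PS1 brain and 54.4, 129, 19.5, 37.9 and 73.0 CPM in WT brain. In blood it was 154, 43.2 and 146 CPM in APP-PS1 and 126, 86.99, 89.2, 63.9 and 157 CPM in WT. The highest library was in APP-PS1 brain and the lowest in WT brain, and all groups overlapped. The means were 92.6 ± 61.5 CPM in APP-PS1 brain, 62.9 ± 42.2 in WT brain, 114 ± 61.7 in APP-PS1 blood and 105 ± 36.8 in WT blood (SD). Ranked by mean, APP-PS1 blood led WT blood, APP-PS1 brain and WT brain, with overlapping neighbours. Mcl1 was the 1 gene of the 7 tested whose averaged log2 fold change was negative, at -0.48 (SE 0.44, edgeR adjusted p = 0.737).

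Bcl2a1b reached 253, 269, 178 and 274 CPM in APP-PS1 brain, against 51.2, 151 and 97.3 CPM in APP-PS1 blood. In WT mice it reached 367, 247, 97.7, 486 and 303 CPM in brain, against 135, 111, 134, 144 and 206 CPM in blood. Every APP-PS1 brain library lay above every APP-PS1 blood library, whereas in WT replicate 3 of brain lay below all 5 blood libraries and the groups overlapped. The means were 244 ± 44.8 CPM in APP-PS1 brain, 300.1 ± 144 in WT brain, 99.9 ± 49.98 in APP-PS1 blood and 146 ± 35.9 in WT blood (SD), and neighbours in their order overlapped. The log2 fold change of brain over blood was 1.24 (SE 0.54, edgeR adjusted p = 0.399) in APP-PS1 and 0.996 (SE 0.36, adjusted p = 0.296) in WT, neither past the threshold, and the averaged change of 1.12 passed narrowly (adjusted p = 0.0435). This call was lost when any 1 of 11 of the 17 libraries was left out (adjusted p up to 0.175, without APP-PS1 blood replicate 1) and when the near-identical copies were summed into 1 row, as given next.

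The level of Bcl2a1d, the other copy with more than a few counts, was 145, 199, 88.9 and 31.3 CPM in APP-PS1 brain and 177, 112, 117, 311 and 229.6 CPM in WT brain. In blood it was 256, 0 and 0 CPM in APP-PS1 and 102, 285, 134, 95.8 and 118 CPM in WT. The APP-PS1 blood group rested on a single library, so its mean of 85.3 ± 148 CPM (SD, n = 3) has little precision. The means of the other groups were 116 ± 72.2 in APP-PS1 brain, 189 ± 83.4 in WT brain and 147 ± 78.4 in WT blood, and all neighbours in the order overlapped. The averaged log2 fold change was 0.38 (SE 0.46, edgeR adjusted p = 0.824), 0.46 (SE 0.78) in APP-PS1 and 0.30 (SE 0.49) in WT; without APP-PS1 blood replicate 1, the APP-PS1 fitted value is not interpretable, because both remaining libraries are at 0.

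The division of counts between the 2 copies varied widely from library to library. Bcl2a1d held 28.6% of the counts of both genes in APP-PS1 brain (95% Clopper-Pearson interval 20.2 to 38.2, 105 counts), 37.7% in WT brain (31.9 to 43.8), 43.5% in APP-PS1 blood (23.2 to 65.5) and 50.9% in WT blood (43.2 to 58.5). These intervals cover counting error only. Within groups the share ran between 10.3% and 42.5% in APP-PS1 brain, 31.1% and 54.5% in WT brain, 0% and 83.3% in APP-PS1 blood, and 36.4% and 72% in WT blood. By exact two-sided permutation tests over libraries, the mean share did not differ detectably between brain and blood in APP-PS1 (30.6% and 27.8%, p = 1, n = 4 and 3) or in WT (40.1% and 48.3%, p = 0.325, n = 5 each). In APP-PS1, 4 against 3 libraries allow no p below 0.0571 in this test, so it could not pass. Bcl2a1a and Bcl2a1c were at or near 0, with at most 45.5 CPM of Bcl2a1a in WT brain replicate 4. The sum of the 4 copies was 364 ± 85.2 CPM in APP-PS1 brain and 185 ± 109 in APP-PS1 blood, and 499.7 ± 234 in WT brain and 307 ± 81.8 in WT blood (SD). As 1 row in the same fit, the summed copies had an averaged log2 fold change of 0.81 (SE 0.27, edgeR adjusted p = 0.0979), which did not pass.

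**Figure D2:**
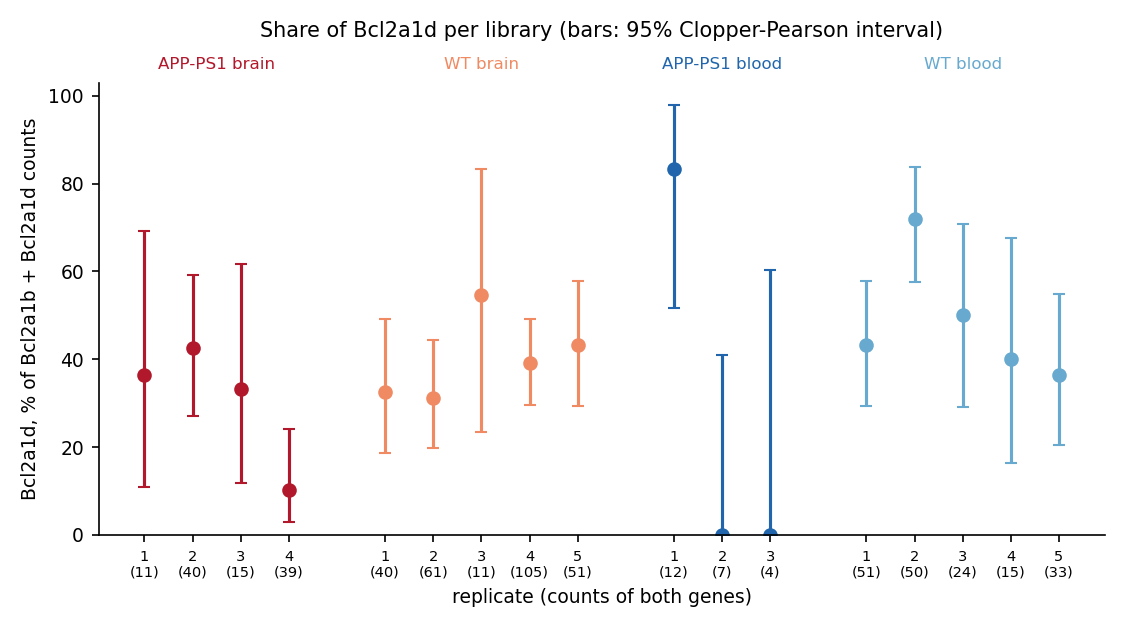
Share of Bcl2a1d in the counts of Bcl2a1b and Bcl2a1d together (y axis, %) per library (x axis, replicate within each group, counts of both genes in parentheses), with 95% Clopper-Pearson intervals. APP-PS1 brain replicate 4 is at 10.3%, WT blood replicate 2 at 72% and APP-PS1 blood replicate 1 at 83.3%, while the other 2 APP-PS1 blood libraries are at 0% on 7 and 4 counts.

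Casp1 (chromosome 9, 5298517 to 5307265, plus strand) encodes the caspase that inflammasomes activate. Its level was 362, 222, 569 and 258 CPM in APP-PS1 brain, against 51.2, 43.2 and 146 CPM in APP-PS1 blood. In WT mice it was 354, 147, 391, 319 and 177 CPM in brain, against 168, 189.8, 145, 79.9 and 226 CPM in blood. The APP-PS1 groups did not overlap, and in WT 3 brain libraries stood above all blood libraries while replicates 2 and 5 of brain lay among them. The means were 353 ± 156 CPM in APP-PS1 brain (SD, n = 4), 278 ± 109 in WT brain (n = 5), 80.1 ± 57.2 in APP-PS1 blood (n = 3) and 162 ± 54.6 in WT blood (n = 5). Ranked by mean, APP-PS1 brain led WT brain, WT blood and APP-PS1 blood, with overlapping neighbours. The log2 fold change of brain over blood was 2.07 (SE 0.56, edgeR adjusted p = 0.0594) in APP-PS1 and 0.63 (SE 0.36, adjusted p = 0.759) in WT, and the averaged change of 1.35 passed (adjusted p = 0.0120). Leaving out APP-PS1 blood replicate 3 brought the APP-PS1 comparison past the threshold (log2 fold change 2.85, adjusted p = 0.0377). The averaged call was lost without APP-PS1 brain replicate 3 (adjusted p = 0.0538), APP-PS1 blood replicate 1 (0.0614) or APP-PS1 blood replicate 2 (0.0785), all of them male libraries.

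The Casp1 change in APP-PS1 mice was 1.44 log2 units larger than in WT mice (SE 0.68, unadjusted p = 0.0381), a difference that did not hold after adjustment by edgeR (adjusted p = 0.945). In female libraries alone, with 1 library each of APP-PS1 brain (258 CPM) and APP-PS1 blood (146 CPM), the APP-PS1 log2 fold change was 0.92 (SE 0.88, adjusted p = 0.772) in place of 2.07; the lone libraries are taken to vary like those of the other groups. Sex and strain cannot be told apart in this difference.

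Casp8 (chromosome 1, 58795374 to 58847503, plus strand) encodes the caspase that death receptors activate first. It had 14 counts over the APP-PS1 brain group, 18 over WT brain, 2 over APP-PS1 blood and 22 over WT blood, which is too few for the main fit. Its level was 109, 70.2, 0 and 39.2 CPM in APP-PS1 brain, 40.8, 41.2, 78.2, 22.8 and 10.4 CPM in WT brain, 51.2, 0 and 0 CPM in APP-PS1 blood, and 27.9, 71.2, 22.3, 31.9 and 29.5 CPM in WT blood. All groups overlapped, and APP-PS1 blood rested on 1 library with 2 counts. Exact two-sided permutation tests gave p = 0.4 for brain against blood in APP-PS1 (n = 4 and 3) and p = 0.865 in WT (n = 5 each). With 4 against 3 libraries the smallest possible p is 0.0571, so the APP-PS1 test could not pass. No difference was detectable at this depth and with these library numbers.

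Tnfsf10 (chromosome 3, 27317028 to 27342427, plus strand) encodes TRAIL, a death ligand whose transcription is known to respond to interferons. Its level was 109, 46.8, 107 and 211 CPM in APP-PS1 brain, against 25.6, 21.6 and 24.3 CPM in APP-PS1 blood. In WT mice it was 122, 118, 156, 175 and 209 CPM in brain, against 18.6, 86.99, 44.6, 15.97 and 49.1 CPM in blood. Every brain library lay above every blood library of the same strain, with the narrowest gap between APP-PS1 brain replicate 2 and the blood libraries. The means were 118 ± 68.3 CPM in APP-PS1 brain, 156 ± 37.8 in WT brain, 23.8 ± 2.06 in APP-PS1 blood and 43.1 ± 28.7 in WT blood (SD), and neighbours in their order overlapped. The APP-PS1 blood libraries held 1 count each, so the SD of 2.06 reflects only their totals. APP-PS1 brain replicate 2, at the narrowest gap, held 4 counts. Tnfsf10 passed the expression filter on its brain libraries, since no blood library reached the 117 CPM that the filter asks of 3 libraries.

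In the 3 APP-PS1 blood libraries Tnfsf10 had 1 count each, 3 in all, against 40 in APP-PS1 brain. The ratio of the summed rates was 5.68 (exact 95% interval 1.81 to 28.7, counting error only). The edgeR log2 fold change was 2.30 (SE 0.88, adjusted p = 0.287) in APP-PS1 and 1.74 (SE 0.53, adjusted p = 0.123) in WT, neither past the threshold, and the averaged change of 2.02 passed (adjusted p = 0.0132). It was lost when APP-PS1 brain replicate 4, the only female library of that group, was left out (log2 fold change 1.72, adjusted p = 0.108), and kept without any 1 of the other 16. By exact two-sided permutation, WT brain against WT blood gave p = 0.00794 (n = 5 each), the smallest p that 5 against 5 libraries allow, and 0.556 after Benjamini-Hochberg adjustment over 8682 genes, of which 6.47% had an unadjusted p under 0.05.

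Fasl (chromosome 1, 161780689 to 161788495, minus strand) encodes FAS ligand, with which CD8+ T cells kill FAS-bearing cells and one another. Its level was 181, 82.0, 107 and 149 CPM in APP-PS1 brain and 177, 165, 39.1, 243 and 104 CPM in WT brain. In blood it was 102, 43.2 and 73.0 CPM in APP-PS1 and 69.9, 31.6, 78.0, 47.9 and 147 CPM in WT. Brain libraries were mostly higher, but 1 in APP-PS1 and 2 in WT lay within the range of the blood libraries. The means were 129.6 ± 43.9 CPM in APP-PS1 brain, 146 ± 77.2 in WT brain, 72.9 ± 29.6 in APP-PS1 blood and 74.96 ± 44.4 in WT blood (SD). Ranked by mean, WT brain led APP-PS1 brain, WT blood and APP-PS1 blood, with overlapping neighbours. Fasl passed the expression filter mainly on its brain libraries, with 5 of 9 above 117 CPM, against 1 of 8 in blood. The averaged log2 fold change was 0.85 (SE 0.42, unadjusted p = 0.0492), and it did not pass after adjustment by edgeR (adjusted p = 0.370).

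Fas (chromosome 19, 34290666 to 34327772, plus strand), the receptor of FAS ligand, was the lowest in counts of the 9 genes. It had 5 counts over APP-PS1 brain, 8 over WT brain, 0 over APP-PS1 blood and 9 over WT blood. The 0 of 126493 counts in APP-PS1 blood allows up to 23.7 CPM (3 counts over the group, counting error only), which is above the group means of 10.8 ± 14.8 CPM in APP-PS1 brain, 13.5 ± 8.01 in WT brain and 13.0 ± 12.0 in WT blood (SD). No fold is given for this reason. Exact two-sided permutation tests gave p = 0.571 for brain against blood in APP-PS1 (n = 4 and 3) and p = 0.976 in WT (n = 5 each). The APP-PS1 test could not pass, because 4 against 3 libraries allow no p below 0.0571.

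**Figure D3:**
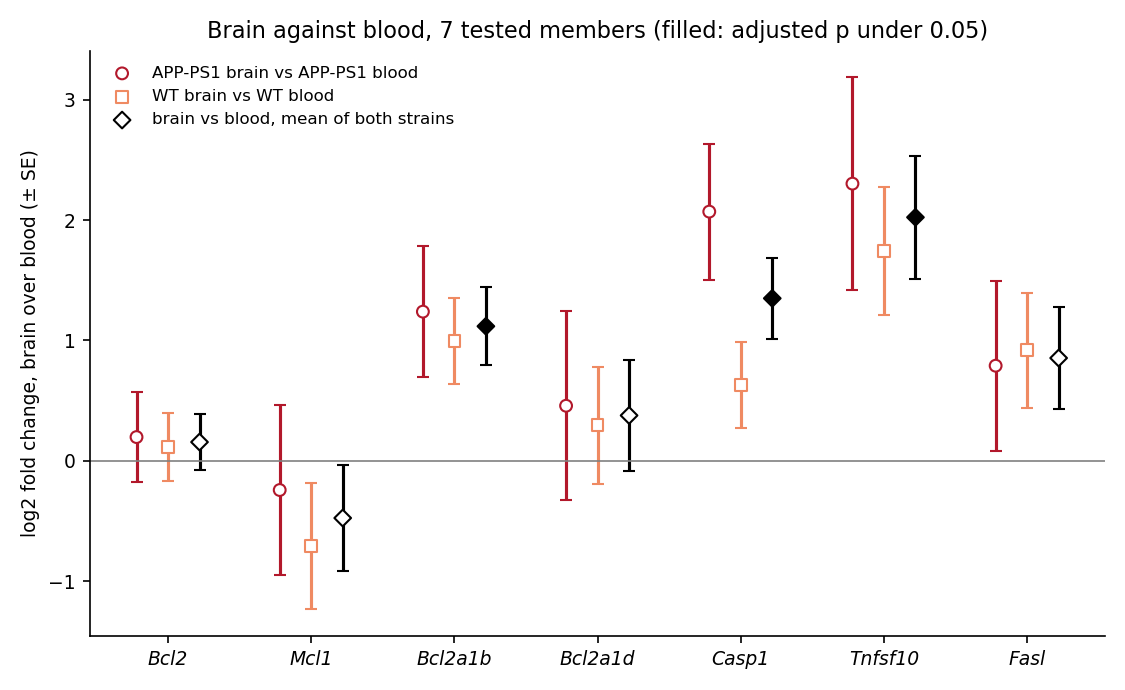
Log2 fold change of brain over blood (y axis, ± SE) for the 7 genes that entered the fit (x axis), in APP-PS1, in WT and averaged over both strains; filled symbols have an edgeR adjusted p under 0.05. Filled symbols stand at 1.12 for Bcl2a1b, 1.35 for Casp1 and 2.02 for Tnfsf10, all in the averaged comparison.

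Counted over the comparisons, edgeR called 0 of the 7 tested genes in APP-PS1 brain against APP-PS1 blood, where 0.549% of all 2366 genes were called, and 0 in WT brain against WT blood, where 0.761% were. At an unadjusted p under 0.05 there were 3 in APP-PS1 (10.7% of all genes) and 2 in WT (7.27%), and DESeq2 and limma voom also called 0 in both. In the averaged comparison 3 of 7 were called, all higher in brain, where 1.27% of all genes were called higher and 2.62% in either direction. With Fasl, 4 of 7 had an unadjusted p under 0.05 there, beside 13.4% of all genes; Tnfsf10 and Fasl entered the fit through their brain libraries, so these counts are a description only. Without the filter on low counts, where all 9 genes were fitted among 13539, Casp1 (adjusted p = 0.0314) and Tnfsf10 (0.0421) were called and Bcl2a1b (0.143) was not, against 0.34% of all genes called. DESeq2 called the same 3 genes as edgeR, and limma voom called 0, with adjusted p of 0.114 for Bcl2a1b, 0.130 for Casp1 and 0.150 for Tnfsf10.

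In female libraries alone the averaged log2 fold change was 2.44 for Tnfsf10 (edgeR adjusted p = 0.135), 0.75 for Casp1 (0.588) and 1.28 for Bcl2a1b (0.327), all positive and none past the threshold. Without WT blood replicate 4, the female-labelled library with 1 Xist count, the values were 1.94 for Tnfsf10 (adjusted p = 0.0233), 1.27 for Casp1 (0.0235) and 1.11 for Bcl2a1b (0.0626), so that the first 2 calls held.

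Brain and blood libraries did not overlap for 3 of the 9 genes in APP-PS1 (Bcl2a1b, Casp1 and Tnfsf10), all higher in brain, where 3.04% of 8682 genes with at least 10 counts were higher in the same sense and 2.45% were lower. In WT they did not overlap for 1 of the 9, Tnfsf10, against 0.783%. In APP-PS1 the exact permutation p was 0.0571 for each of the 3 genes (n = 4 and 3), the smallest that this design allows. The median log2 fold change of the 7 tested genes was 0.79 in APP-PS1, 0.63 in WT and 0.85 in the average, beside medians of 0.03, 0.02 and 0.03 over all 2366 genes. Members below the filter are not in these medians, and Fasl, whose own values are 0.79 and 0.85, and Tnfsf10 are in them through their brain libraries, so nothing is read from the distance to all genes.

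Markers of other cells that could carry these transcripts were read beside the tissue differences. Microglia and macrophage genes summed to 258 to 409 CPM in APP-PS1 brain and 475 to 608 in APP-PS1 blood, and to 235 to 436 in WT brain and 268 to 591 in WT blood, so their sum was not higher in brain. Of 15 such genes in the table, 9 had a count in APP-PS1 brain, 4 in APP-PS1 blood, 5 in WT brain and 7 in WT blood. Adgre1, C1qa, P2ry12 and Tmem119 were at 0 in all 17 libraries. Genes of neurons and glia summed to 17.8 to 196 CPM in APP-PS1 brain and 0 to 128 in APP-PS1 blood. In WT their sum was 31.3 to 100 CPM in brain and 49.1 to 112 in blood. The part of microglial, neuronal and glial transcripts in the results was not tested. Of 8 neutrophil genes, S100a8, S100a9, Retnlg, Mpo and Camp were at 0 in all libraries and the sum did not exceed 17.8 CPM in any. The haemoglobin sum of red cells (Alas2 was at 0) moved with tissue, at 36.2 to 368 CPM in APP-PS1 brain and 2970 to 8071 in APP-PS1 blood, and at 156 to 873 in WT brain and 2152 to 9967 in WT blood. With mitochondrial, ribosomal protein and haemoglobin genes left out of totals and fit, the averaged log2 fold changes were 2.01 for Tnfsf10, 1.34 for Casp1 and 1.11 for Bcl2a1b, and all 3 calls held. NK cell genes summed to 4835 to 7234 CPM in APP-PS1 brain and 4726 to 5109 in APP-PS1 blood, and to 4487 to 6941 in WT brain and 4861 to 5818 in WT blood. Nearly all of this was Nkg7, a gene of cytotoxic granules that CD8+ T cells also express; Ncr1 was at 0 in all libraries, and the summed Klrb1c count was 0 over APP-PS1 brain and 1 over APP-PS1 blood, and 1 over WT brain and 8 over WT blood. Klre1 had at most 86.1 CPM in APP-PS1 brain and 48.7 in APP-PS1 blood, and at most 156 in WT brain and 340.05 in WT blood. B cell genes summed to 53.3 to 574 CPM in APP-PS1 brain and 146 to 302 in APP-PS1 blood, and to 40.8 to 97.7 in WT brain and 108 to 419 in WT blood; the part of NK and B cell transcripts in the results was not tested.

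Of 71 further genes on 8 lists of apoptosis, inflammasome and survival signalling, 70 were in the table and 11 were high enough to be tested. In the averaged comparison 4 of the 11 had a positive log2 fold change, beside 1256 of all 2366 genes, and the median was -0.02, beside 0.03. Of the 11, 1 was called and was lower in brain, beside 1.35% of all genes called lower. The called gene was Pim1, a survival kinase induced by cytokines through STAT5, which fell by 0.78 on the log2 scale in brain (SE 0.21, edgeR adjusted p = 0.0309). Within strains edgeR did not call it, at -0.94 in WT (adjusted p = 0.0865) and -0.61 in APP-PS1 (adjusted p = 0.535). Its values under the alternatives and with libraries left out were not kept.

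None of the other tested survival receptors and signal genes on the list with Pim1 passed. Il7r, the receptor of the T cell survival cytokine interleukin-7, had an averaged log2 fold change of -0.93 (SE 0.38, edgeR adjusted p = 0.259), and Jak1, the kinase that signals from it, -0.49 (SE 0.19, adjusted p = 0.177). Il2rg, the chain shared by these cytokine receptors, was at -0.02 (SE 0.22). Of the 5 tested genes on this list, 1 had a positive value, Il2rb at 0.45 (SE 0.38), and the median was -0.49.

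Of the effectors of death, the pore former Bax was the only tested gene of 11 pore-forming and BH3-only genes, with a log2 fold change of -0.66 (SE 0.25, edgeR adjusted p = 0.165). Among caspases and their regulators 3 of 15 were tested: Casp1, the caspase-8 regulator Cflar at 0.19 (SE 0.26) and cytochrome c (Cycs), which triggers the apoptosome, at -0.02 (SE 0.29). Pycard, the adapter that links inflammasome sensors to caspase-1, was the only other tested gene of the inflammasome list, at -1.14 (SE 0.44, adjusted p = 0.177), opposite in sign to Casp1. Birc6, an inhibitor of apoptosis, was at 0.18 (SE 0.36) and Trp53, which encodes p53, at 0.73 (SE 0.47, adjusted p = 0.541). The receptor genes Fas and Tnfrsf10b, which encodes the mouse TRAIL receptor, did not reach the filter.

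**Figure D4:**
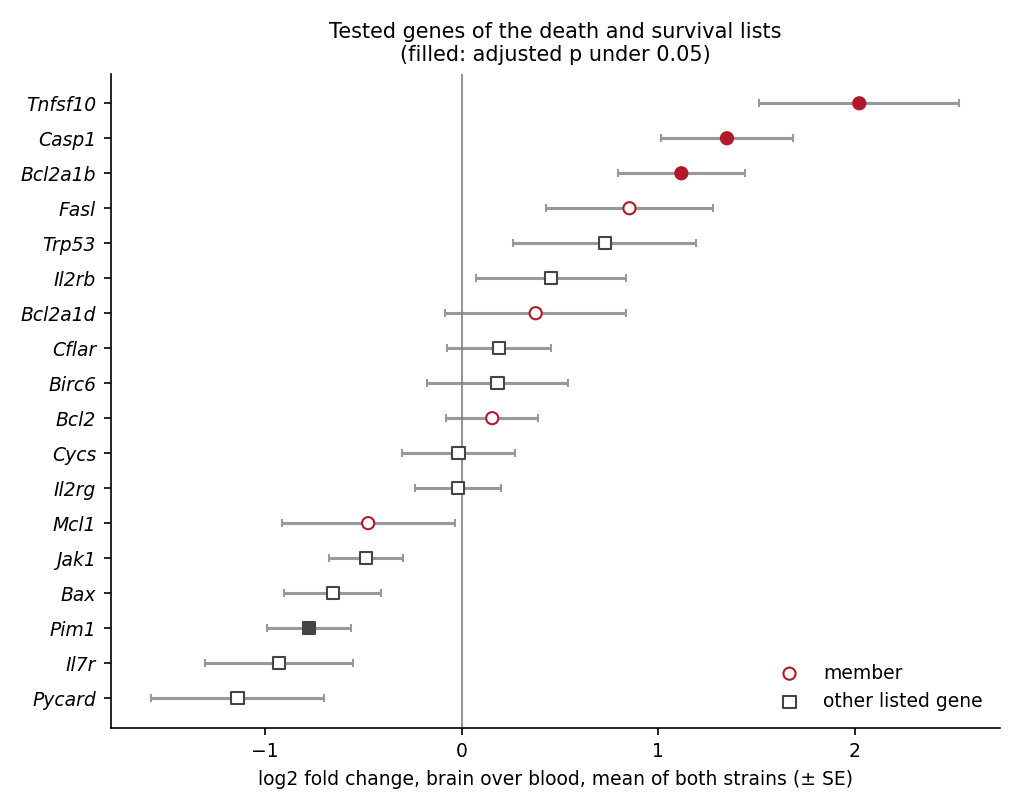
Averaged log2 fold change of brain over blood (x axis, ± SE) for the 18 tested genes of the death and survival lists (y axis, sorted by value); circles are the genes followed here, squares the other listed genes, and filled symbols have an edgeR adjusted p under 0.05. Tnfsf10, Casp1 and Bcl2a1b are filled at the top, and Pim1 is filled at -0.78.

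Between strains none of the 7 tested genes passed. In brain, edgeR called 0 of 7 genes for APP-PS1 against WT, as it called 0% of all 2366, and DESeq2 and limma voom called 0; at an unadjusted p under 0.05 there were 0 of 7, beside 4.14% of all genes. The log2 fold changes ran between -0.83 for Bcl2a1d (SE 0.57) and 0.43 for Mcl1 (SE 0.59), with Bcl2a1b at -0.35 (SE 0.38) and Casp1 at 0.30 (SE 0.38). Their median was -0.30, beside -0.04 over all genes. For Casp8 and Fas the exact permutation p was 0.556 and 0.714 (n = 4 and 5), where 3.77% of 8682 genes had a p under 0.05.

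In blood, all 7 tested genes had a negative log2 fold change for APP-PS1 against WT, with a median of -0.59, beside -0.05 over all genes. Of all 2366 genes, 1119 had a positive value. Tnfsf10 and Fasl entered the fit through their brain libraries, so nothing is read from this count or median. Casp1 had the most negative value, at -1.14 (SE 0.56, unadjusted p = 0.0469, edgeR adjusted p = 0.616), followed by Bcl2a1d at -0.995 (SE 0.72) and Tnfsf10 at -0.93 (SE 0.93), which is uncertain in size because of its 3 counts in APP-PS1 blood. The others were Bcl2a1b at -0.59 (SE 0.53), Fasl at -0.17 (SE 0.69), Bcl2 at -0.07 (SE 0.36) and Mcl1 at -0.04 (SE 0.65). edgeR called 0 of 7, beside 0.0423% of all genes, 1 of 7 had an unadjusted p under 0.05, beside 8.03%, and limma voom called 0. DESeq2 gave no adjusted p for Casp1, Bcl2a1b or Bcl2a1d in this comparison, so it could not have called them. Its values for Bcl2, Mcl1, Tnfsf10 and Fasl were not kept, so whether it could have called these is not known. For Casp8 and Fas the exact permutation p was 0.25 and 0.357 (n = 3 and 5), where 4.93% of genes had a p under 0.05. In every library of APP-PS1 blood the total was lower than in every library of WT blood. After thinning every library to 27646 counts, the Casp1 value in blood was -1.02 (SE 0.76, edgeR adjusted p = 0.776); of the 9 genes only Bcl2 and Casp1 could be tested at that depth.

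In both strain comparisons all 9 genes overlapped between the groups, where in brain 0.645% of 8682 genes were higher and 0.829% lower in every APP-PS1 library, and in blood 1.98% and 2.95%. The brain over blood change itself differed between strains for 0 of 7 genes by edgeR, beside 0.0423% of all genes, and 1 of 7, Casp1, had an unadjusted p under 0.05, beside 4.95%. DESeq2 and limma voom called 0. The APP-PS1 and WT tissue comparisons share no library, whereas the averaged comparison uses the same libraries as both.

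The genes whose pattern over the 17 libraries was most like that of each gene are named as a description. Likeness is Pearson's r of log2 TMM-scaled CPM among the tested genes, and the points share library depth, tissue and strain. For Casp1 these were Igflr1 (r = 0.913), Ifi27l2a (0.885) and Samd3 (0.861). For Tnfsf10 they were Isg15 (0.785), Xcl1 (0.757) and Isg20 (0.750), of which Isg15 and Isg20 are known as interferon-induced genes and Xcl1 as a chemokine gene of CD8+ T cells. For Fasl they were Cd52 (0.874), Tnrc6a (0.779) and Lcp1 (0.759), and for Bcl2a1b Ndufaf3 (0.800), Cd52 (0.799) and Phgdh (0.770). For Bcl2a1d they were Snrnp70 (0.764), Tnfrsf18 (0.749) and Pafah1b1 (0.740), for Bcl2 Rabac1 (0.727), Ncoa1 (0.709) and Commd7 (0.672), and for Mcl1 Med30 (0.762), Actr3 (0.700) and Atp6v1e1 (0.683). Cd52, a surface glycoprotein of lymphocytes, was the only gene named for more than 1 of them.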

How the data were processed

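RNA sequencing of CD8+ T cells gave 1 table of whole-number counts per gene and library, deposited by the authors without normalization. GRCm38 is the build, and Bowtie2 2.2.2, HTSeq 0.11.2, FastQC and DESeq2 the tools, listed with no role in the submitters' processing notes. Strand setting, annotation release, read length and the handling of reads that fit several genes were not given in the sources used. Groups came from the labels.

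The main test was edgeR 4.0.16 (R 4.3.3) with TMM scaling, filterByExpr (117 CPM in 3 libraries, 2366 genes), a robust quasi-likelihood fit with 1 mean per group over all 17 libraries, and Benjamini-Hochberg adjustment per comparison; an adjusted p under 0.05 made a call. The fit's common biological coefficient of variation was 0.370. The standard error is the absolute log2 fold change divided by the root of F. CPM use the library total. Genes with at least 10 counts also had exact two-sided permutation tests of mean CPM (SciPy 1.17.1). The steps were tested on simulated data. Over 29 same-group pairs, chi-square per degree of freedom was 2.59 to 5.69, so each library counts once.

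The 9 genes, the lists and the averaged comparison were chosen with earlier results of these data known. Named genes are the 9, list genes called in any comparison or among the 4 tested others with the highest CPM per list, and the 3 nearest patterns per tested gene. Il2rb, the remaining tested gene of the list with Pim1, is named as well. Promoters are from RefSeq (GRCm38.p6), all 9 matched; coding sequences and coordinates are from GENCODE M21. Alternatives were DESeq2 1.42.0, limma voom with quality weights per library (limma 3.58.1), RLE size factors, 2 other filters and a non-robust fit. Every limma voom result given here used these weights. Further alternatives were a fit of the compared groups alone, libraries thinned to 27646 counts, a sex term, female libraries and fewer gene classes. The rest were other CPM scalings, leaving out each library and, chosen after seeing the data, summed Bcl2a1 copies.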

Additional observations from a re-analysis of the deposited data

Results flagged for a closer look

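Among the 27 sets of 4 or 5 libraries checked (9 genes in the 3 groups of that size), 2 held a library far from the others of its group, and chance alone is expected to mark about 1 in 20 such sets. Both were WT blood replicate 2. Bcl2a1d, a near-identical copy of the survival gene Bcl2a1b, stood at 285 CPM there, above 95.8 to 134 CPM in the other WT blood libraries. Casp8, the initiator caspase of death receptors, stood at 71.2 CPM, above 22.3 to 31.9 CPM in the others, on few counts.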

How the results depend on the processing

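No paired analysis was possible because the labels give no replicate numbers that tie brain to blood libraries. The 3 calls of the averaged comparison became 0 with limma voom, 0 in female libraries and 1 (Casp1) after thinning to 27646 counts, where only Bcl2 and Casp1 were tested; leaving out 1 library gave 1 to 3 calls, with 1 without APP-PS1 brain replicate 4 or APP-PS1 blood replicate 1. In APP-PS1 brain against blood that gave 0 to 1 calls. In female libraries the sign reversed for Bcl2 in APP-PS1 (-0.45) and averaged (-0.17) and for Casp1 between strains in brain (-0.012). Leaving out 1 library moved these log2 fold changes across 0: Bcl2 in WT (-0.15 to 0.22), in APP-PS1 (-0.11 to 0.54) and averaged (-0.00156 to 0.32), Bcl2a1d in APP-PS1 (-0.17 to 6.32, whose upper end has APP-PS1 blood at 0), Mcl1 in APP-PS1 (-0.68 to 0.034) and Casp1 between strains in brain (-0.035 to 0.51). Casp8 in WT brain against blood turned to -0.16 CPM and Fas to -0.57 CPM with TMM-scaled CPM, and Casp8 to -0.020 on log2(CPM + 10). The cause was not tested. Between strains, log2 fold changes in female libraries or with 1 library left out were kept only for Bcl2a1b, Bcl2a1d and Casp1. For the strain difference they were kept only for Casp1, so the signs of the other genes were not checked there. Over all alternatives and left-out libraries, genes called numbered 8 to 26 in WT, 4 to 22 in APP-PS1, 0 to 7 between strains in blood, 18 to 72 averaged and 0 to 1 for the strain difference. Depth limits Casp8, Fas and the APP-PS1 blood values.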
